A study of Mus musculus with 8 samples.

Results

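The expression of 3 calcium-binding genes, *Pvalb* (parvalbumin), *Calb1* (calbindin), and *Calb2* (calretinin), was followed across 4 nuclei of the mouse hypothalamus. The genes were taken through every array probe whose RefSeq accession belongs to them, which gave 4 probes, 2 for *Pvalb* and 1 for each of the others. They are 3 of the 20284 genes that could be named on the array. The genes were chosen by their measured signals in these nuclei, so their levels are given as a description and without a test. The RNA came from the arcuate, ventromedial, dorsomedial, and lateral nuclei (Arc, VMH, DMH, and LH), which were cut by laser from the brains of 2 untreated female C57BL/6J mice (strain C57BL/6 in the labels) at 3 months of age. All groups share this background, and none carries an engineered allele. Each nucleus was measured on 2 arrays, 8 in all, named here Arc1, Arc2, VMH1, and so on. The sources do not state which arrays share a mouse, so the errors measure the spread between these samples, which may be partly technical.

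The 3 proteins bind calcium through EF-hands, helix-loop-helix motifs that hold the ion. Parvalbumin and calbindin act as buffers that shape the calcium transients of firing neurons, and calretinin is a close relative of calbindin. The 3 are widely used to tell classes of neurons apart, with parvalbumin marking fast-spiking inhibitory interneurons in the cortex. The lateral hypothalamus holds a small cord of parvalbumin neurons mixed with cells that express the transcription factor *Foxb1*, known as the parvafox nucleus.

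Signal intensities were scaled to a common 75th percentile of the arrays, and these scaled intensities are the levels given below. A signal counted as measured when the scanner software called it well above background. The lowest measured signal was between 79.3 and 132 on the 8 arrays, and a signal that was not measured is printed with its value but gives only a bound. Each probe had 1 spot per array. The brightness of a probe also depends on its sequence, so no probe was set against another.

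The arrays carried the genes that mark their nuclei, with *Agrp* between 47181 and 53020 on the Arc arrays and up to 581 elsewhere, and *Nr5a1* between 11694 and 12163 on the VMH arrays and up to 688 elsewhere. *Hcrt* had 105971 and 116750 on the LH arrays and still 51283 and 55940 on the DMH arrays. The LH arrays were the least alike of the replicate pairs, with a correlation of 0.938 across probes against 0.971 to 0.981 in the other nuclei. LH2 and Arc1 also carried *Oxt*, a hormone gene of the neighboring paraventricular nucleus, at 8332 and 6559, against up to 1242 on the other arrays. *Crh* of the same nucleus read 4931 and 3623 on the LH arrays and 2026 and 2543 on the DMH arrays. *Avp*, listed with these genes, read 2432 on LH2, 279 on LH1, and up to 351 on the other arrays. *Sim1* and *Vip*, also on that list, were not measured on any array. LH1 in turn carried the DMH genes *Npvf* and *Grp*, at 406 and 376, against 29.0 and 32.8 on LH2. *Npvf* also read 438 on VMH1, against 72.8 on VMH2. The levels of *Pvalb*, *Calb1*, and *Calb2* and the calls of the 2 gene lists were therefore also computed without LH1 or LH2, and those of the marker lists were not.

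*Pvalb* was highest in the LH on both of its probes. The brighter probe (A_55_P2114437) read 5855 and 7396 on the LH arrays, 430 and 429 on the DMH arrays, 285 and 88.5 on the Arc arrays, and 29.9 and 125 on the VMH arrays. Both LH arrays lay far above the other 6, both DMH arrays lay above both Arc and both VMH arrays, and the Arc and VMH arrays overlapped. Arc2 and VMH1 were not well above background, so that in these nuclei *Pvalb* was measured on 1 array of 2.

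The mean was 6625 ± 1090 in the LH, 430 ± 0.713 in the DMH, 187 ± 139 in the Arc, and 77.3 ± 67.1 in the VMH (SD, n = 2). The LH therefore had 15.4 times the signal of the DMH, and the lower LH array still had 13.6 times that of the higher DMH array. On the log2 scale, the LH exceeded the DMH by 3.94 (SE 0.74). The next step down was from the DMH to the Arc, a ratio of 2.30 between means with no overlap of the arrays, with Arc2 unmeasured. With 1 measured array each, the Arc and the VMH have no order for *Pvalb*.

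The dimmer probe (A_55_P2059040) was measured in the LH alone. It read 600 and 545 on the LH arrays, and between 18.7 and 27.4 on the other 6, where it was not well above background on any. These 6 values give no order among the Arc, VMH, and DMH. Against the lowest measured signals, the LH was at least 6.11-fold higher than the DMH, at least 5.50-fold higher than the VMH, and at least 5.06-fold higher than the Arc. The low level of *Pvalb* in the DMH therefore rests on the brighter probe.

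**Figure D1:**
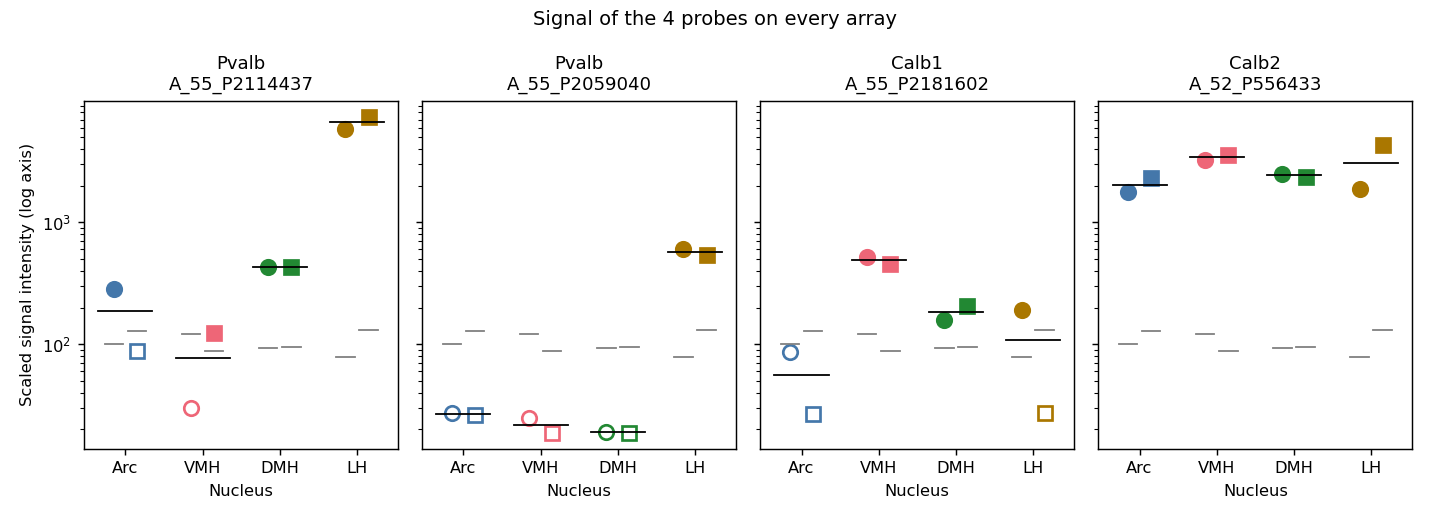
Scaled signal intensity (log axis) of the 4 probes on each of the 8 arrays, by nucleus. Circles are replicate 1 and squares replicate 2, filled where the signal was well above background and open where it was not, black lines are means of a nucleus, and short gray lines are the lowest measured signal of each array. *Pvalb* stood out in the LH on both probes, *Calb1* was highest on the 2 VMH arrays, and *Calb2* was measured on all 8 arrays; panels are not to be compared in height.

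Among the 28896 probes measured on both arrays of at least 1 nucleus, the excess of the LH over the average of the Arc, VMH, and DMH ranked 3 for the brighter *Pvalb* probe, at 5.35 (SE 0.60) on the log2 scale, with Arc2 and VMH1 entered at their unmeasured signals. The median of all probes was -0.02. The dimmer probe was unmeasured on all 6 other arrays, so its excess has no fixed size, with 4.69 at the signals as read, 2.47 with dim signals lifted to each array's lowest measured signal, and 2.33 with normexp. The spread between the highest and the lowest nucleus of the brighter probe was wider than that of 99.97% of the probes. Both LH arrays lay above all 6 others on both *Pvalb* probes, a pattern that 12.1% of all tested probes had. These values describe the choice of the gene and were given no test.

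The LH level of *Pvalb* did not hang on 1 array. The LH was highest on both probes without each array in turn, and the ratio of the LH to the next nucleus on the brighter probe was 17.2 without LH1 and 9.67 with normexp, which starts from median spot signals, corrects for the local background, and adds an offset. The LH was also highest and the DMH second on the brighter probe without each array in turn, without scaling, with quantile normalization, normexp, the series table, outlier spots kept, and dim signals raised, whereas a filter on all 8 arrays drops the probe.

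*Calb1* followed another pattern, with its highest level in the VMH. Its probe (A_55_P2181602) read 524 and 458 on the VMH arrays, 159 and 208 on the DMH arrays, 191 and 27.4 on the LH arrays, and 86.1 and 26.6 on the Arc arrays. Both VMH arrays lay above the other 6, as was the case for 8.09% of all tested probes. The gene was measured on both VMH and both DMH arrays, on LH1 but not on LH2, and on neither Arc array.

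The mean of *Calb1* was 491 ± 47.0 in the VMH, 183 ± 34.5 in the DMH, 109 ± 116 in the LH, and 56.3 ± 42.1 in the Arc (SD, n = 2). The VMH had 2.68 times the signal of the DMH, and the lower VMH array had 2.20 times that of the higher DMH array. The log2 difference of 1.43 between them had an SE of 0.90, which is as wide as it is because the fit takes the spread of *Calb1* from all nuclei, the LH included. Against the Arc, the VMH was at least 4.33-fold higher and the DMH at least 1.61-fold higher. The LH overlapped with both the DMH and the Arc, so that no order between these neighbors can be given.

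The position of the LH in this order depended on the array, with the higher signal on LH1. LH1 was the LH array that carried *Npvf* and *Grp*, whose part in this position was not tested. With LH1 left out, the LH became the lowest nucleus, and with LH2 left out, it was second after the VMH. The VMH was highest without each array in turn and under the same 6 alternatives as *Pvalb*, and *Calb1* is likewise dropped by a filter on all 8 arrays. *Calb1* and *Pvalb* thus had their highest levels in different nuclei, and their log2 signals had a correlation of -0.39 over the 8 arrays, which share their RNA with each other gene and include signals below background.

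*Calb2* was measured on all 8 arrays and varied least. Its probe (A_52_P556433) read 3282 and 3548 on the VMH arrays, 1866 and 4299 on the LH arrays, 2508 and 2362 on the DMH arrays, and 1762 and 2319 on the Arc arrays. The highest and the second lowest signal of all 8 arrays were both from the LH, so the LH overlapped with each of the other nuclei. The VMH lay above the DMH and the Arc on both arrays, and the DMH lay above the Arc by a narrow margin.

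The mean of *Calb2* was 3415 ± 188 in the VMH, 3082 ± 1720 in the LH, 2435 ± 103 in the DMH, and 2041 ± 394 in the Arc (SD, n = 2). The log2 difference of the VMH from the LH was 0.27 (SE 0.38), that of the LH from the DMH was 0.22 (SE 0.38), and that of the DMH from the Arc was 0.27 (SE 0.38), each smaller than its error. The widest difference, 0.76 between the VMH and the Arc, was wider than that of 58.7% of all tested probes, whose median was 0.65. Without LH1, the LH had the highest mean, at 1.26 times the VMH, and without LH2 it had the lowest. Without scaling of the arrays, the DMH passed the LH.

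The 4 widest gaps between the replicate arrays of a nucleus were those of the brighter *Pvalb* probe in the Arc and VMH and of *Calb1* in the Arc and LH. The brighter *Pvalb* probe was higher on Arc1 than on Arc2 by 1.69 on the log2 scale, a gap that 0.62% of all tested probes reached in the Arc. On the VMH arrays the gap was -2.06, reached by 0.436% of probes, with VMH2 the higher. *Calb1* had a gap of 1.70 in the Arc, reached by 0.616% of probes, and of 2.80 in the LH, reached by 1.78%. In each of these 4 cases at least 1 array was not well above background, although the dimmer *Pvalb* probe, unmeasured in the Arc, VMH, and DMH, had gaps of only 0.06, 0.40, and 0.03 there.

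The gap of *Calb2* in the LH was -1.20, with both arrays well above background and LH2 the higher, and 10.6% of probes had a gap of this size there. *Pvalb* in the LH had gaps of -0.34 on the brighter and 0.14 on the dimmer probe, within the middle of all probes. On the DMH arrays the brighter *Pvalb* probe read almost the same, with a gap of 0.0034.

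**Figure D2:**
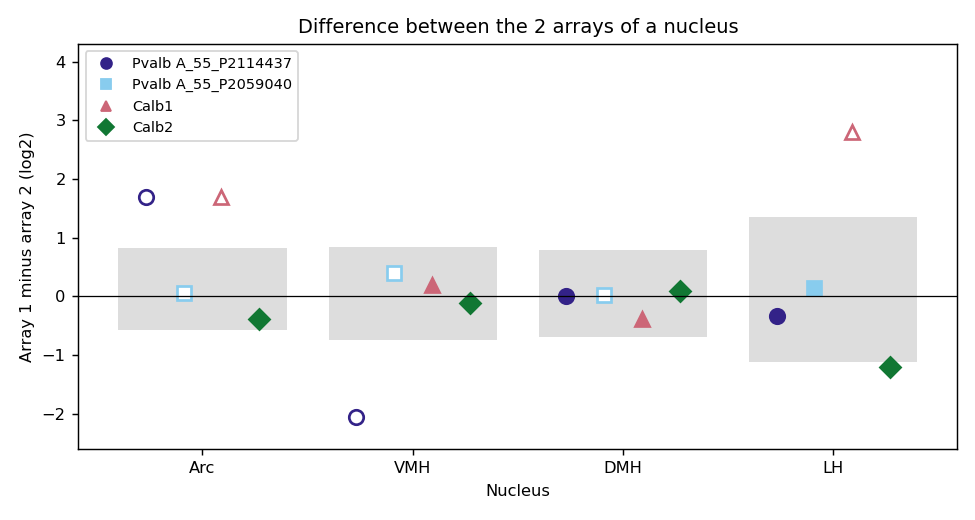
Log2 difference between array 1 and array 2 of each nucleus for the 4 probes. Filled symbols were well above background on both arrays and open ones were not, and the gray boxes span the 5th to the 95th percentile of all tested probes; the brighter *Pvalb* probe in the Arc and VMH, *Calb1* in the Arc and LH, and *Calb2* in the LH lie outside the boxes.

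The genes whose signals ran most like those of each member over the 8 arrays were then listed, taking the 5 with the highest Pearson correlation of log2 signal. All correlations are over 8 arrays that share their RNA, depth of signal, and the contrast between nuclei, and are descriptions only. For the brighter *Pvalb* probe they were *Pex13* (0.98), *Tsc22d4* (0.98), *Zfp536* (0.98), *Mob2* (0.97), and *Kat2b* (0.97). *Pex13*, a gene of peroxisome import, read 651 and 754 on the LH arrays and between 376 and 521 elsewhere, a far smaller rise than that of *Pvalb*.

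For *Calb1*, the 5 were *Disc1* (0.97), *Dbp* (0.97), *Cdo1* (0.97), *Gpm6a* (0.95), and *Gria2* (0.95). *Gria2*, which encodes a subunit of AMPA-type glutamate receptors, read 869 and 891 on the VMH arrays, 553 and 620 on the DMH arrays, 561 on LH1 but 324 on LH2, and 327 and 319 on the Arc arrays. It shared with *Calb1* the high VMH arrays and the low LH2. For *Calb2*, the 5 were *Dtx3* (0.97), *Ttc19* (0.96), *Gm3696* (0.96), *Ppp2r2b* (0.96), and *Fgf1* (0.96). *Fgf1*, a fibroblast growth factor, read 655 on LH1 and 1638 on LH2, so its likeness to *Calb2* included the gap between the LH arrays. The members were not alike among themselves, with correlations of *Calb2* with *Pvalb* of -0.02 and with *Calb1* of 0.04, whereas the 2 *Pvalb* probes had 0.86.

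The 3 genes were next placed among 59 other genes of EF-hand calcium binding, from the sensors of the calmodulin and visinin families to the S100 proteins, of which 58 had a probe. Of these, 50 genes with 68 probes were measured well enough to be tested. Nuclei were compared with the F-test of limma and the LH was set against the average of the other 3 by a limma contrast, both with Benjamini-Hochberg adjustment over all 28896 probes and a threshold of 0.05. Among the 68 probes, 17 (25%) of 15 genes differed between nuclei, where 8.34% of all tested probes did. In the LH, 11 probes (16.2%) of 11 genes were higher and 3 (4.41%) of 2 genes were lower, where 3.89% and 2.45% of all tested probes were. The median difference of the LH from the rest was 0.22 on the log2 scale in the list and -0.02 in all probes. Unmeasured nuclei enter these differences at their dim signals, which touches *S100a11* (VMH) here and *Syt2*, *Kcna1*, and *Foxb1* (Arc) in the list that follows.

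The closest relatives of the members gave no second case like *Pvalb*. *Ocm* (oncomodulin, the other parvalbumin-type protein), *S100g* (a small calbindin), and *Scgn* (secretagogin, a hexa-EF-hand protein like calbindin and calretinin) were not well above background on any of the 8 arrays. *Necab1*, a neuronal calcium-binding gene, read highest in the DMH at 2327 ± 364 (SD, n = 2) but did not pass the F-test (limma adjusted p = 0.303), and neither did *Necab2* (limma adjusted p = 0.172). *Necab1* read 204 on LH1 and 1745 on LH2 and passed the F-test in 2 of the 8 fits without an array. The calmodulin genes *Calm2* and *Calm3*, with 2 probes each, did not pass it on any probe, with limma adjusted p from 0.417 to 0.591.

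Higher in the LH were the mitochondrial EF-hand gene *Efhd1*, by 2.29 (SE 0.20, limma adjusted p = 0.00317), and *S100a11*, by 2.06 (SE 0.29, limma adjusted p = 0.0119). *Efhd1* read 2767 and 3771 on the LH arrays, between 872 and 1133 on the VMH and DMH arrays, and 268 on each Arc array. *Cabp7*, a calcium sensor of the secretory pathway, read 1075 and 1096 on the LH arrays and between 195 and 774 elsewhere, a difference of 1.72 (SE 0.25, limma adjusted p = 0.012). *S100a10* was higher by 1.06 (SE 0.16, limma adjusted p = 0.0129), although its Arc arrays, at 2561 and 2476, came close to the LH arrays at 3047 and 2883. Its call was lost without scaling of the arrays.

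*S100b*, *Necab3*, *Caln1*, and 1 of the 2 *Hpca* probes were also higher in the LH, by 0.88, 0.93, 0.99, and 1.05 (limma adjusted p = 0.0292, 0.0352, 0.0382, and 0.0393). *S100b*, abundant in astrocytes and also on the astrocyte list, read 31931 and 40330 on the LH arrays and between 15339 and 24239 elsewhere. *Hpca*, the neuronal sensor hippocalcin, gave no single answer, since its other probe differed by -0.24 (limma adjusted p = 0.537). *S100b*, *Hpca*, *Necab3*, and *Caln1* lost the call without scaling, *Hpca* also with quantile normalization and with the replicate block, and they kept it in 1 of the 8 fits that left out an array, whereas *Efhd1*, *S100a11*, *Cabp7*, and *S100a10* kept it in all 8, as did *Cabp1*, which was named after its values were seen and lost the call without scaling.

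Lower in the LH were *Kcnip2*, a partner of A-type potassium channels, by -1.50 (SE 0.18, limma adjusted p = 0.0069), and both probes of *Hpcal4*, by -1.34 and -1.41 (limma adjusted p = 0.0171 and 0.0136), the former lost in 3 of the 8 fits without an array. *Kcnip2* read 206 and 264 on the LH arrays and between 448 and 1038 on the other 6. *Hpcal4* was highest in the VMH, at 9760 and 11036 on its brighter probe against 1919 and 2500 in the LH. Among the genes that passed the F-test, *S100a4* and *S100a6* were highest in the Arc, and *Vsnl1* was lowest there. *S100a6* read 3599 and 2799 in the Arc against 585 to 1381 elsewhere, and *Vsnl1* 4996 and 5421 against 13308 to 16015. Both *S100a4* probes were measured on 2 arrays in the Arc alone, so they were tested only through the nucleus where they were highest. They are among the 17 EF-hand probes that passed. Of the 8 fits without an array, the F-test call held in 6 for *Vsnl1*, in 2 for *S100a6*, and in 7 and 2 for the probes of *S100a4*, the latter lost also under the other settings of scaling, background, and moderation.

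**Figure D3:**
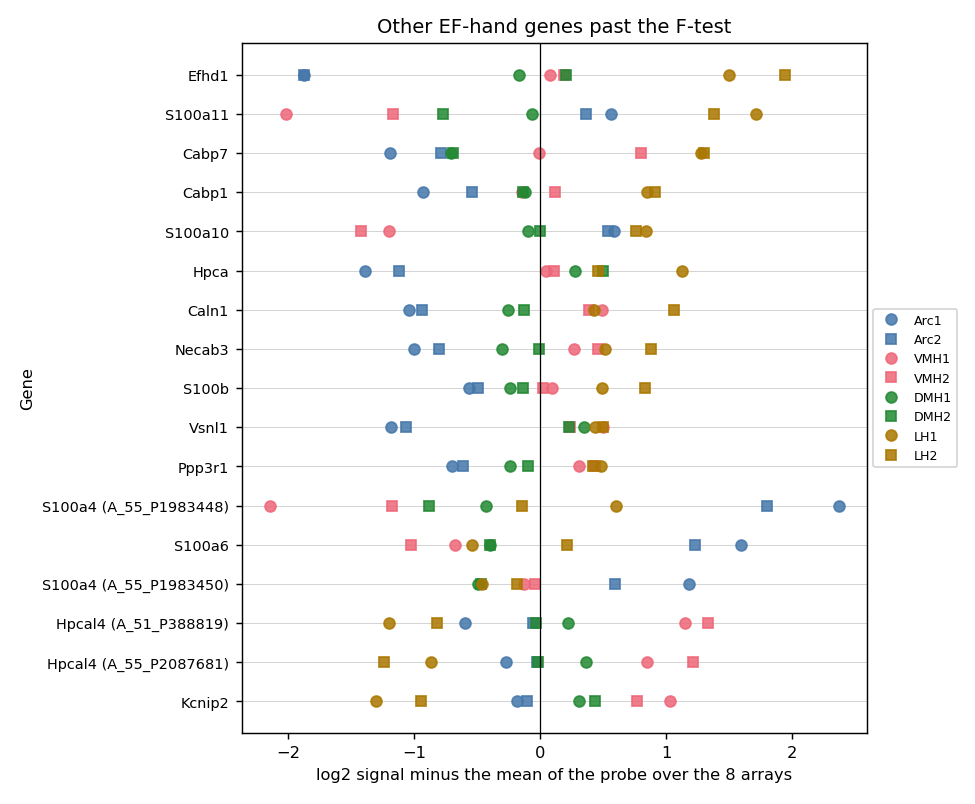
Signal of the 17 EF-hand probes that passed the F-test over the 4 nuclei, each array drawn as its log2 signal minus the mean of the probe over the 8 arrays. Circles are replicate 1 and squares replicate 2; the LH arrays are highest for 11 of the 17 probes by mean, the Arc for 3, and the VMH for 3.

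These counts moved with single arrays. The F-test called 6 probes without Arc1 and without Arc2, 7 without VMH1 and without VMH2, and 10 without DMH1 and without DMH2, and 5 probes were higher in the LH without any 1 of these 6 arrays and 7 without LH2. The probes lower in the LH were 7 without LH2. Without scaling, 3 probes were higher in the LH, and 5 were with no filter on dim probes.

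The last group held 36 genes known from parvalbumin neurons of various brain regions, all with a probe, among them fast potassium and sodium channels, neurofilaments, perineuronal net components, transmitter genes, and *Foxb1*. The list was drawn up with the level of *Pvalb* in the LH known, so its direction is no independent evidence. Of 46 probes tested, 26 (56.5%) of 22 genes differed between nuclei, against 8.34% of all tested probes. In the LH, 21 probes (45.7%) of 17 genes were higher, against 3.89% of all, and 1 (2.17%) was lower, against 2.45%. The median difference of the LH from the rest was 1.09 on the log2 scale, with -0.02 for all probes.

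Among the genes named by the rule, *Syt2* and *Scn4b* had the widest differences. *Syt2*, the calcium sensor of fast transmitter release, read 4750 and 2870 on the LH arrays, between 269 and 622 on the VMH and DMH arrays, and was not measured in the Arc, a difference of 3.86 (SE 0.29, limma adjusted p = 0.00243). *Scn4b*, a sodium channel subunit, read 2965 and 2558 on the LH arrays and up to 323 on the other 6, a difference of 3.58 (SE 0.30, limma adjusted p = 0.00317). Both shared with *Pvalb* a gap between the LH and every other array.

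*Kcna1*, a low-threshold potassium channel, read 2436 and 3518 on the LH arrays, but 2010 and 1846 on the VMH arrays, 238 and 388 on the DMH arrays, and was not measured in the Arc. Its difference was 3.30 (SE 0.41, limma adjusted p = 0.00825), and it was high in the VMH, where *Pvalb* was measured on VMH2 alone. *Vamp1*, a vesicle SNARE, read 49431 and 65101 on the LH arrays and 25142 and 28256 on the VMH arrays, with a difference of 2.16 (SE 0.18, limma adjusted p = 0.00317). *Tac1*, the substance P precursor, had much the same order, with 14004 and 13945 on the LH arrays and 10309 and 9184 on the VMH arrays.

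*Foxb1* was measured in 3 of the nuclei, at 1396 and 1223 on the LH arrays, 648 and 910 on the DMH arrays, and 408 and 425 on the VMH arrays, and was not well above background on either Arc array. Its difference of 2.31 (SE 0.37, limma adjusted p = 0.0172) kept the call in 5 of the 8 fits that left out an array, the weakest of them without VMH1 (limma adjusted p = 0.0562). The order LH, DMH, and VMH is the one that the brighter *Pvalb* probe had among these nuclei, while *Pvalb* dropped far more steeply from the LH to the DMH.

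The channel genes gave mixed results by probe. *Scn1a* was higher in the LH on both probes, by 1.66 and 1.09 (limma adjusted p = 0.00508 and 0.0169), the latter lost in 3 of the 8 fits without an array. *Kcnc1*, the Kv3 channel subunit that serves fast spiking, was higher by 1.42 (SE 0.18, limma adjusted p = 0.00857) on 1 probe, which read 1736 and 1560 on the LH arrays and between 316 and 1091 elsewhere. Its other 2 probes differed by 0.64 and -0.41 and did not pass (limma adjusted p = 0.106 and 0.16).

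The transmitter genes differed among themselves. *Gad1*, which makes GABA, read 9704 and 9450 on the LH arrays, 7194 and 8710 on the DMH arrays, 7310 and 7376 on the Arc arrays, and 372 and 266 on the VMH arrays. Its difference of 1.86 (SE 0.19, limma adjusted p = 0.00465) came with a VMH far below the other nuclei, and *Gad2* and both probes of the vesicular GABA transporter *Slc32a1* had the same low VMH. *Gad1*, *Gad2*, and 1 *Slc32a1* probe thus had, like the brighter *Pvalb* probe, their highest mean in the LH and the next in the DMH, but with the DMH and Arc near the LH. *Slc17a6*, the vesicular glutamate transporter of the hypothalamus, was highest in the VMH, at 8341 and 10588, against 5101 and 3912 in the LH, and its LH contrast did not pass (0.22, limma adjusted p = 0.603). *Adcyap1*, the PACAP precursor, was likewise highest in the VMH, at 17586 and 18972 against up to 2821 elsewhere. The probe lower in the LH was that of *Cox6a2*, a respiratory chain subunit named after its values were seen, by -1.25 (SE 0.17, limma adjusted p = 0.0105).

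**Figure D4:**
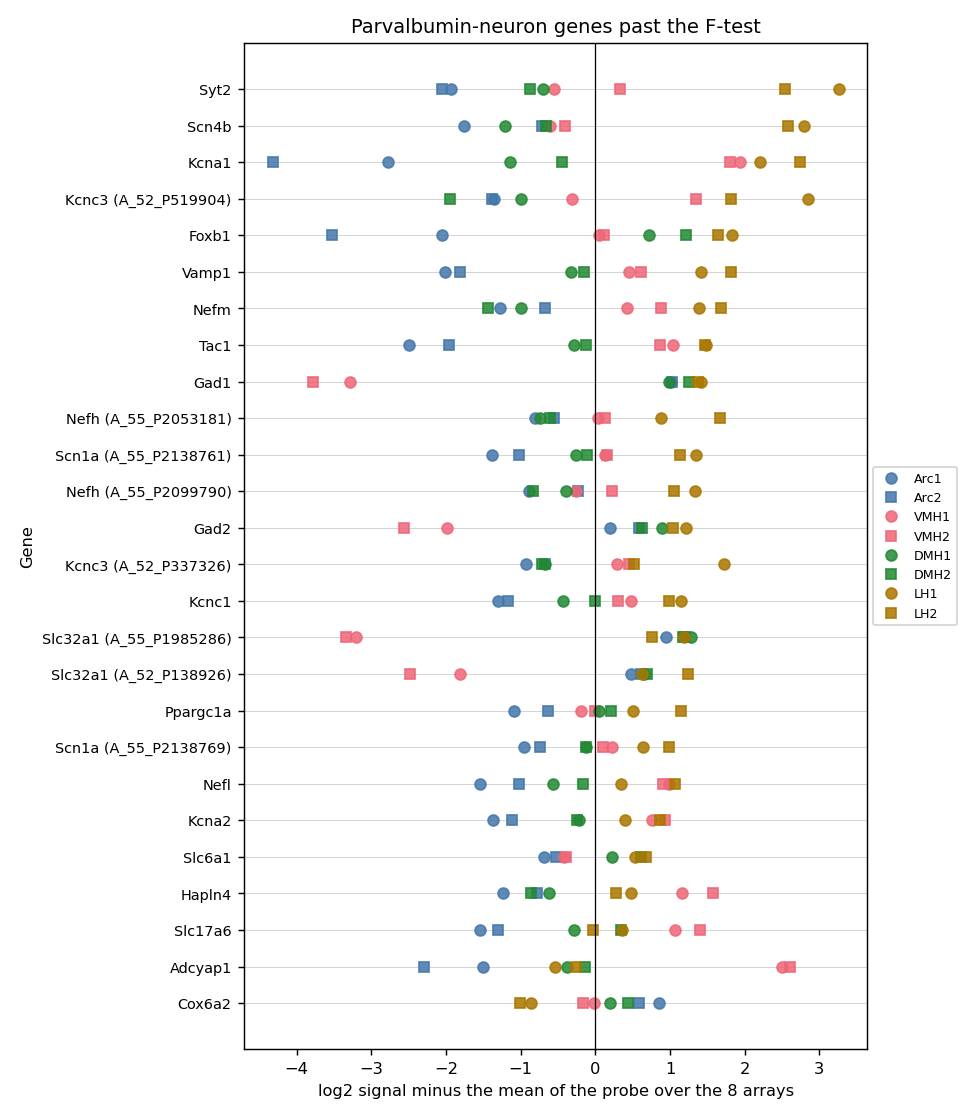
Signal of the 26 probes of the parvalbumin-neuron list that passed the F-test, each array drawn as its log2 signal minus the mean of the probe over the 8 arrays. Circles are replicate 1 and squares replicate 2; by mean the LH was highest for 19 probes, the VMH for 5, and the Arc and DMH for 1 each, and *Gad1*, *Gad2*, and *Slc32a1* show the low VMH.

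In fits without 1 array each, 13 of the 21 probes, of 12 genes, stayed higher in the LH in all 8, among them *Syt2*, *Scn4b*, *Kcna1*, *Vamp1*, *Tac1*, and *Gad1*. The F-test called 17 probes without Arc1 and without Arc2.

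Markers of some other cells moved with the LH as well. All 11 oligodendrocyte markers examined had both LH arrays above the other 6, with a summed signal of 118359 and 132779 on the LH arrays, 28449 and 28787 on the DMH arrays, 29793 and 39558 on the VMH arrays, and 18506 and 10732 on the Arc arrays. Of these, *Klk6* and *Anln* were not measured outside the LH and were tested through it alone. The other 9 were called higher in the LH, with log2 differences from 1.66 for *Mbp* to 3.48 for *Ermn*. Of 8 astrocyte markers, 3 had both LH arrays above the rest and 2 were called higher. Of 5 endothelial markers, 3 had both LH arrays above the rest and 1, *Flt1*, was called higher (limma adjusted p = 0.0226), with sums of 5669 and 7268 on the LH arrays and between 2749 and 4903 elsewhere. Of 6 microglia markers, 2 (*Cx3cr1* and *Tmem119*) had both LH arrays above the other 6, and none was called. The microglia sums were 78729 and 76340 on the LH arrays and between 94686 and 116585 elsewhere. They were mostly the signal of *Csf1r*, at 67652 and 63119 on the LH arrays and between 84884 and 108110 elsewhere. Of 6 ependymal and tanycyte markers 2 were called lower in the LH, and of 5 neuron markers none was called. The part of these cells in the LH levels of *Pvalb*, of the EF-hand genes, and of the parvalbumin-neuron genes was not tested. In bulk tissue, more cells that express a gene and more RNA per cell cannot be told apart.

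Markers of neighboring regions that also hold parvalbumin neurons were looked up on the LH arrays. Of 5 thalamic markers, 2 (*Prkcd* and *Rora*) had both LH arrays above the other 6, but none was called different in the LH, with sums of 5759 and 3950 on the LH arrays and between 2818 and 5271 elsewhere, and *Gbx2* among them was not measured on any array. Of 4 markers of the striatum and pallidum none was called higher in the LH and 1, *Rgs9*, was called lower, with sums of 6703 and 11728 on the LH arrays and between 8016 and 16249 elsewhere, and *Drd1* was not measured on any array. Of 3 subthalamic and premammillary markers, *Foxb1* was called higher in the LH, *Foxa1* read 195 and 155 on the LH arrays and was not measured elsewhere, so that it was tested through the LH alone, and *Barhl1* was not measured on any array. The part of these regions in the level of *Pvalb* was not tested further.

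**Figure D5:**
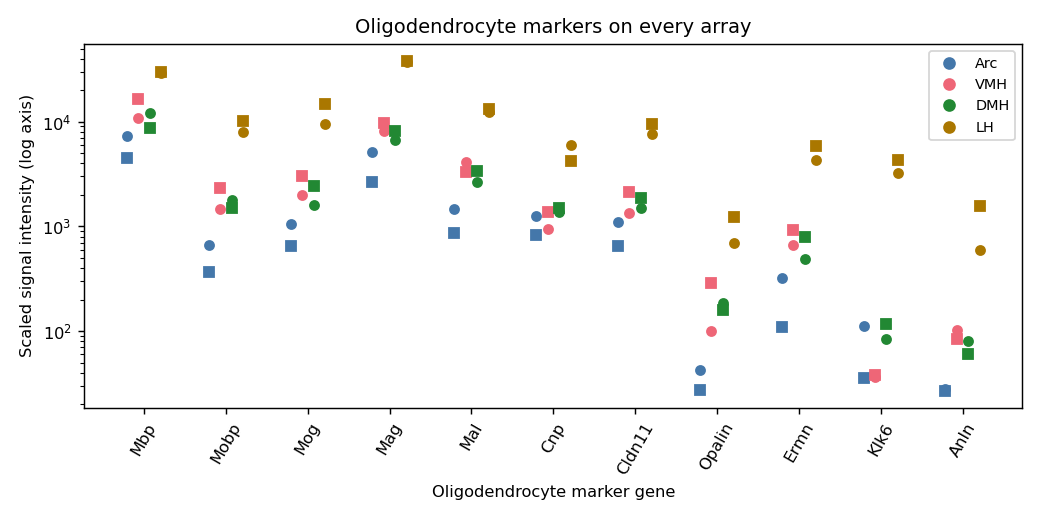
Scaled signal intensity (log axis) of 11 oligodendrocyte marker genes on the 8 arrays, with circles for replicate 1 and squares for replicate 2 of each nucleus. Both LH arrays are above the other 6 for every one of the 11 genes.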

How the data were processed

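RNA of laser-microdissected nuclei was amplified as a whole transcriptome, labelled chemically, and hybridized to Agilent mouse arrays read in 1 color. Cy3 is the dye in the labels and Cy5 in the methods; the signal is that of the red channel. Per the file headers, the deposited values are linear intensity values from Agilent Feature Extraction 10.7.3.1 (11.5.1.1 per the labels), with background subtracted and spatial trends removed, not scaled between arrays. A deposited series table gives this intensity averaged per probe and rounded.

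The title of each of the 8 arrays gave its nucleus and replicate. Outlier-marked spots were dropped, the other spots of a probe were averaged, the 55681 probe signals of an array were scaled to a shared 75th percentile, and log2 was taken of the deposited intensity. No spot was saturated, and 47.1% to 52.7% of the spots of an array were well above background, which with 2 arrays per nucleus limits the precision. The 28896 probes with a signal well above background on 2 arrays of 1 or more nuclei were fitted in 1 linear model with limma 3.58.1 in R 4.3.3, with 4 residual and 3.02 prior degrees of freedom. Where a nucleus was not well above background on either array, a ratio is a lower bound, set against the higher of the lowest measured signal and the signal of the probe on each array. The array methods state a ratio criterion and no test. Of 28390 probes with a RefSeq accession, 26762 (94.3%) were named through GRCm38.p6, used for names only.

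The members, the gene lists, the marker lists, and the rule for named genes were chosen with earlier results of these data known. Named are all member probes, up to 12 genes of each list with the smallest F-test p among those with an adjusted p under 0.05, a fixed set of relatives and parvalbumin-neuron genes (*Ocm*, *S100g*, *Scgn*, *Calm2*, *Calm3*, *S100b*, *Necab1*, *Necab2*, *Hpca*, *Foxb1*, *Gad1*, *Slc17a6*, and *Kcnc1*), for each member the 5 named genes of highest correlation, and markers. A few genes of these lists are not reported here. The alternatives were no scaling, quantile normalization, normexp (offset 50, on median signals), the series table, no filter on dim probes or one that needs all 8 arrays, keeping outlier spots, raising dim signals to the lowest measured signal, a replicate block, trended and robust moderation, one-way ANOVA, and leaving out each array.

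The analysis was tested on simulated data of 28896 probes. Of 100 probes raised in the LH by 2 on the log2 scale, the LH contrast called 74% and the F-test 49%, and of 100 raised by 4, 96% and 90%.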

Additional observations from a re-analysis of the deposited data

How the results depend on the processing

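For the list counts and the difference between the highest and the lowest nucleus of each member probe, 145 values under alternatives kept their call or stayed within the replicate spread or 1.5 times the count, 19 were weaker, 10 moved, 1 was stronger, and none reversed. Other differences of the LH turned sign with its arrays, among them VMH minus LH of *Calb2* from 0.27 to -0.33 without LH1, and, without LH2, LH minus the rest from 0.15 to -0.46 for *Calb2* and from -1.16 to 0.24 for *Calb1*, and LH minus DMH from 0.22 to -0.38 for *Calb2* and from -1.33 to 0.07 for *Calb1*. Without scaling, LH minus DMH of *Calb2* went from 0.22 to -0.10. One-way ANOVA in place of the moderated F-test lowered the EF-hand count from 17 to 4 probes and the parvalbumin-neuron count from 26 to 8. The count of EF-hand probes higher in the LH, 11, was 3 without scaling and 5 with no filter on dim probes, which adds probes to the adjustment. Without scaling, the median LH difference of all probes was -0.11 in place of -0.02. Log2 differences that include signals near background depended on the correction. The LH minus VMH difference of the brighter *Pvalb* probe (6.75) was 4.39 with normexp and 5.74 with dim signals raised. The LH minus DMH difference of the dimmer probe (4.92) was 4.60 without scaling, 4.72 with quantile normalization, 2.17 with normexp, and 2.61 with dim signals raised. The VMH minus Arc difference of *Calb1* (3.36) was 1.38 with normexp and 2.11 with dim signals raised. With a filter on all 8 arrays, *Calb1* and both *Pvalb* probes gave no value. The cause of the other changes was not tested.

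Leaving out 1 array at a time, the EF-hand counts ranged from 6 to 21 by the F-test, from 5 to 10 higher in the LH, and from 2 to 7 lower in the LH, and the parvalbumin-neuron counts from 17 to 29, from 14 to 21, and at 1. The differences ranged from 5.72 to 7.78 for the brighter and from 4.85 to 4.99 for the dimmer *Pvalb* probe, from 2.51 to 4.20 for *Calb1*, and from 0.56 to 0.95 for *Calb2* (VMH minus Arc). With a nucleus left at 1 array, that array is assumed to vary like the others.

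Deviations of same-numbered arrays had correlations from -0.03 to 0.26, so the numbers were not taken to pair the samples. With the replicate block, the EF-hand list had 14 probes by the F-test, 9 higher and 3 lower in the LH, and the parvalbumin-neuron list 24, 22, and 1.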
